A study of Mus musculus with 6 samples.

Results

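The 7 subunit genes of AMP-activated protein kinase (AMPK) and Stk11, which encodes its main activating kinase, were examined in mouse small intestinal organoids, epithelial structures grown in culture. All 8 genes were on the array, with 10 probes among 45281, and each gene was represented by its brightest probe over the 6 arrays, among 19057 genes in all. The study profiled 3 control samples from Villin-Cre mice and 3 Snai1 knockout samples from Villin-Cre, Snai1fl/fl mice. Both groups had received 0.5 µM tamoxifen and were harvested after 24 hours, so neither was free of Cre or of tamoxifen, and the animals' age is not given. Villin drives Cre in intestinal epithelium, and Snai1, the floxed gene, encodes a zinc-finger repressor of transcription. By the series title, the comparison concerns lineage allocation and stem cell maintenance. Nothing in the labels ties replicates to separate animals or cultures, and p-values here reflect the variation among these samples alone, part of which may be technical.

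AMPK is a heterotrimer of a catalytic alpha, a scaffolding beta and a regulatory gamma subunit. The gamma subunit binds AMP, ADP and ATP, and Stk11 (LKB1) phosphorylates the activation loop of the alpha subunit, most effectively when cellular energy is low. The active kinase restrains anabolic pathways such as fatty acid synthesis and mTORC1 signalling and favours catabolic ones such as fatty acid oxidation and autophagy. Stk11 is known in the intestine as the tumour suppressor gene of Peutz-Jeghers polyposis.

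Of the 8 genes, Prkag2, which encodes the gamma2 subunit, was the one that separated the groups. Its control level was 2.04 times its knockout level, a log2 difference of -1.03 ± 0.03 (knockout minus control; SE from limma, n = 3 each). The brightest probes of the other 7 genes differed by between -0.047 and 0.0056. Each difference was smaller in size than its standard error in the fit without a replicate block. With the replicate number as a block, the standard error of Prkab1 was 0.043, below the size of its difference of -0.047. The dimmer Prkaa2 probe differed by -0.13 ± 0.11. The set was chosen with this contrast known and with Prkag2 already seen to be lower, so the values of all 8 are given as a description, with no test. By limma's adjusted p under 0.05 over all genes, 1 of the 8 was called, against 0.131% of all genes (25 of 19057). With the replicate number as a block it was also 1 of 8, against 0.0472%. Nothing is read from these shares, since the choice of the set used the contrast. The groups did not overlap for 1 of the 8, again Prkag2, against 12% of all genes. In whole organoids, fewer cells of a type and less RNA per cell cannot be told apart.

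The deposited values ran from 7.71 to 14.8, with a median of 7.87 and an upper quartile of 8.27, and arrays correlated at r = 0.994 to 0.997. Values near the median are compressed, so differences of dim probes are understated, and brightness was not compared between probes as a level of expression. Both probes of Snai1 read between 7.86 and 7.91 in either group's mean, close to the median of all probes, and therefore did not check the knockout label. Of 7 epithelial markers 6 exceeded the upper quartile. Epcam was the exception, at 8.13 ± 0.01 in control (SD, n = 3). Of 6 enterocyte markers 4 exceeded the upper quartile, while Fabp1 and Fabp2 were dim, at 7.80 and 7.82 in control. All 10 fibroblast and muscle markers, all 5 measured immune markers and all 4 endothelial markers lay at or below the upper quartile. None of the 55 measured markers was called by limma's adjusted p, with or without the replicate block, and 7 (12.7%, against 7.22% of all genes) had an unadjusted p under 0.05. The mean of the 5 enteroendocrine markers was 9.24 to 9.27 on control arrays and 9.08 to 9.16 on knockout arrays, without overlap. The mean of the 5 crypt base stem cell markers was 9.18 to 9.46 and 9.40 to 9.66, with overlap. Both lists are named with their values known, and the array means of all other marker lists overlapped between the groups. The part of these differences in the values below was not tested.

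**Figure D1:**
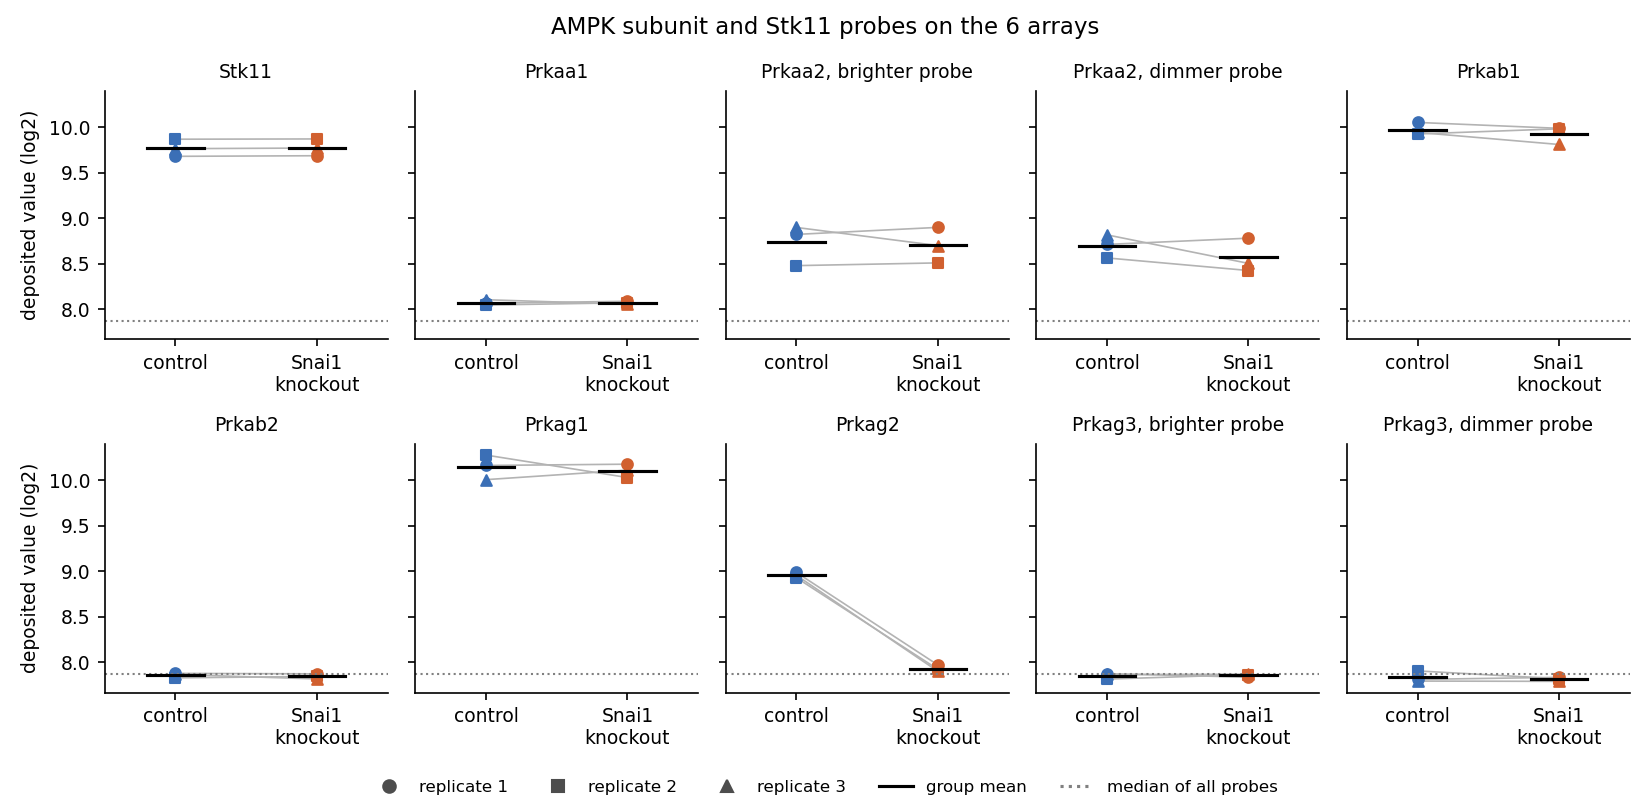
Deposited log2 values of the 10 probes of the AMPK subunit genes and Stk11 in control (blue) and Snai1 knockout (orange) arrays, with a marker shape and a grey line for each replicate number, a black bar for the group mean and a dotted line for the median of all probes (7.87). Prkag2 goes from 8.96 to 7.93, next to the dotted line, while the groups of every other probe overlap.

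Stk11, the upstream kinase, was bright and all but identical between groups. Its probe, ILMN_2591570, read 9.68, 9.87 and 9.76 on control arrays 1 to 3 and 9.68, 9.87 and 9.77 on knockout arrays 1 to 3. The arrays differed by up to 0.19 within a group, but arrays of the same replicate number differed by only 0.0065, 0.0028 and 0.0073. The group difference was 0.0056 ± 0.065 (SE), and 86.7% of all genes had a larger one in either direction. The standard error fell to 0.022 with the replicate number as a block.

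The catalytic subunits did not separate the groups. Prkaa1 (alpha1), measured by ILMN_1233439, read 8.06, 8.04 and 8.10 in control and 8.09, 8.07 and 8.05 in knockout, only 0.36 above the lowest value of the table, where values are compressed. Its difference of -0.00083 ± 0.024 was smaller than that of 97.9% of all genes. Prkaa2 (alpha2) varied most between arrays of one group. Its brighter probe, ILMN_2803138, read 8.82, 8.48 and 8.90 in control and 8.90, 8.51 and 8.70 in knockout, with SDs of 0.22 and 0.20. In both groups replicate 2 was the lowest. The difference was -0.031 ± 0.14, the least precise of the 8, and the pairs of the same number differed by 0.077, 0.030 and -0.20, so they did not share a direction. The dimmer probe, ILMN_1227113, read 8.71, 8.56 and 8.82 against 8.78, 8.42 and 8.50. It tracked the brighter probe over the 6 arrays at r = 0.87 (a description; the arrays share their 2 groups and replicate numbers). Its difference was -0.13 ± 0.11, and its groups overlapped too.

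Of the scaffolding subunits, one was bright and the other too dim to follow. Prkab1 (beta1), by ILMN_2653081, read 10.05, 9.92 and 9.94 in control and 9.99, 9.98 and 9.81 in knockout. It had the largest difference among the 7 members other than Prkag2, -0.047 ± 0.060, and 29.9% of all genes had a larger one. Prkab2 (beta2), by ILMN_1215061, read 7.88, 7.83 and 7.87 in control and 7.87, 7.85 and 7.82 in knockout. Both of its means lay below the median of all probes, so a change of this transcript was not measurable here.

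Among the gamma subunits, the groups overlapped for Prkag1 (gamma1) and not for Prkag2 (gamma2). Prkag1, by ILMN_2771396, read 10.16, 10.28 and 10.01 in control and 10.18, 10.03 and 10.11 in knockout. Its difference was -0.043 ± 0.075, with pairs of the same number at 0.014, -0.25 and 0.10. Prkag3 (gamma3), known mainly from skeletal muscle, sat at the bottom of the scale on both of its probes. The brighter, ILMN_2468772, read 7.88, 7.82 and 7.87 in control and 7.84, 7.87 and 7.87 in knockout, and the dimmer, ILMN_2702917, lay between 7.79 and 7.91. Across the 6 arrays these probes of Prkag3 moved in opposite directions (r = -0.91, a description), at a level where no change could be measured.

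Prkag2 was read by a single probe, ILMN_3161626, annotated to the transcript NM_145401. It read 8.99, 8.93 and 8.96 on control arrays and 7.97, 7.92 and 7.90 on knockout arrays. Values within a group spanned 0.058 in control and 0.070 in knockout, and the groups were far from overlapping. The 3 pairs of the same number differed by -1.02, -1.01 and -1.05. The group means were 8.96 ± 0.03 and 7.93 ± 0.04 (SD, n = 3 each). Only 1 of the 19057 genes had a more negative difference, and 0.0157% had a larger one in either direction. The control mean lay 1.25 above the lowest value of the table and the knockout mean 0.22 above it, close to the 0.16 of the median probe. The probe was therefore near the floor in the knockout, and the fold of 2.04 understates the difference by an unknown amount. When the lowest linear value of each array was subtracted and 16 was added before taking log2, control exceeded knockout 6.01-fold, with a log2 difference of -2.59 ± 0.13. This fold depends on the added 16, and other offsets were not tried, so it is no estimate of the true fold.

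**Figure D2:**
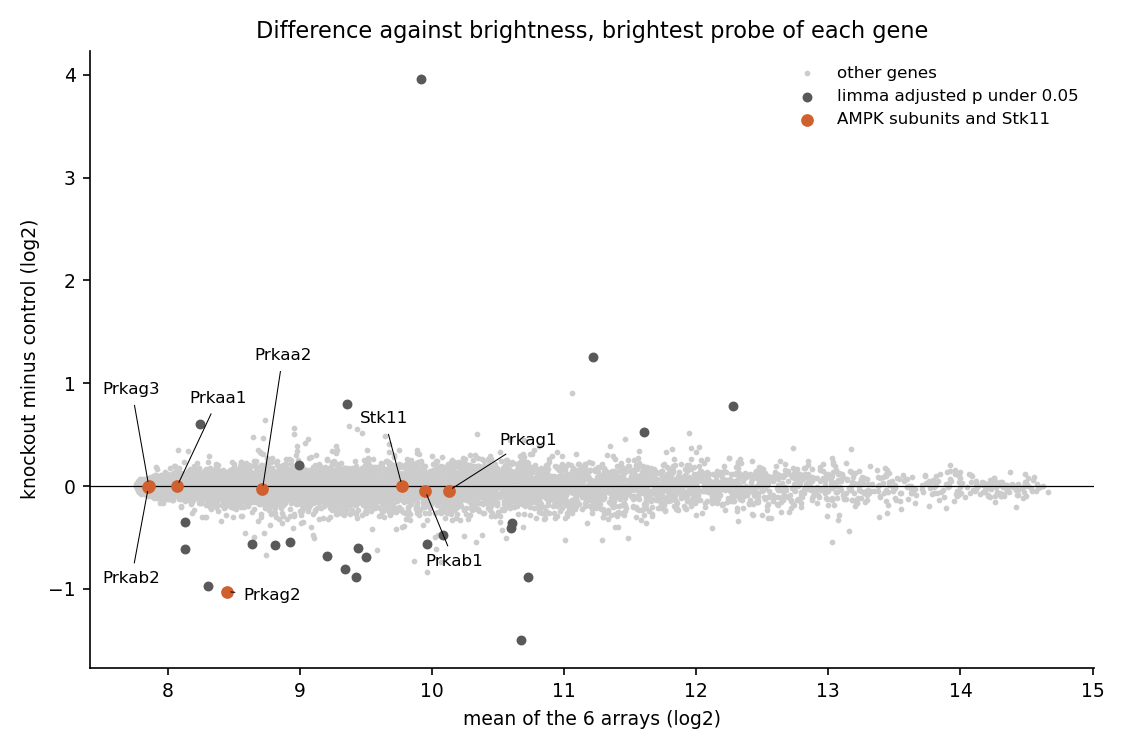
Knockout minus control difference (log2, vertical) against the mean of the 6 arrays (log2, horizontal) for the brightest probe of each of 19057 genes, with the genes of limma adjusted p under 0.05 in dark grey and the AMPK subunits and Stk11, including the called Prkag2, in orange. Prkag2 lies at -1.03, and the other 7 members lie within 0.05 of the zero line.

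RefSeq promoter windows (GRCm38.p6) were on hand for all 8 genes, and Prkag2 had 3 annotated starts. The windows are shown because Prkag2 is the member that separated the groups and because a single probe cannot tell which start its signal comes from. Which start NM_145401 uses is not given in those tables. Each line gives the 250 bases before a start, 5′ to 3′ on the minus strand, with capitals for the E-box letters bound by Snail-family repressors (CACCTG, or CAGGTG on the other strand, which is the same motif). The windows are chr5:25100643-25100892 for start 1, chr5:24995754-24996003 for start 2 and chr5:24908510-24908759 for start 3.
Prkag2 start 1: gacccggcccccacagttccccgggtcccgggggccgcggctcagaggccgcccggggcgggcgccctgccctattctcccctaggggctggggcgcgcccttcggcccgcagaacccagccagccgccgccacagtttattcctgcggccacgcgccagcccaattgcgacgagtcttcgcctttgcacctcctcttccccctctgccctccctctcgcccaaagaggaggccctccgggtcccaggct
Prkag2 start 2: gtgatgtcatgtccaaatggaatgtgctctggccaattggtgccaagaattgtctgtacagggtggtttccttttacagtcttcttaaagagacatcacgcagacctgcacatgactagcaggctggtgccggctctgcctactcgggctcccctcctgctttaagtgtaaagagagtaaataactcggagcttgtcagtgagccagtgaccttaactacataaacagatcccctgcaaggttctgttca
Prkag2 start 3: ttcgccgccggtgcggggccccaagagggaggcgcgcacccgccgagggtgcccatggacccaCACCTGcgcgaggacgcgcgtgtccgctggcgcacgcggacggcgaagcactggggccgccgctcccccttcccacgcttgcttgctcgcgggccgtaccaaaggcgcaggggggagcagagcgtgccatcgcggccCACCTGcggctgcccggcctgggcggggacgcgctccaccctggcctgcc
Start 3 held 2 matches, beginning 187 and 50 bases before the start, and starts 1 and 2 held none. No window of the other 7 members held the motif, so 1 of 10 windows did, against 17.2% of 32851 promoter windows of the same length. A match is a description of the letters and not a binding site, and no binding was measured here.

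Of the 10 measured genes nearest to Prkag2, 1 was called by limma, 1500035N22Rik, against 0.131% of all genes. With the replicate block 0 were called, against 0.0472% of all genes. By the order of genes in GRCm38.p6, 1500035N22Rik a long noncoding RNA gene, is the next measured gene, and its annotated span lies inside that of Prkag2 and includes start 2. It read 8.40, 8.36 and 8.55 in control and 7.84, 7.82 and 7.82 in knockout, with no overlap, and fell by 0.61 ± 0.05 on the log2 scale (limma adjusted p = 0.022, and 0.069 with the replicate block). Its knockout mean of 7.83 lay below the median probe, on the compressed part of the scale, so this difference too is understated by an unknown amount. Because the genes overlap, and the table gives neither strand nor probe positions, signals of Prkag2 and 1500035N22Rik cannot be told apart with certainty. Galnt11, which encodes an enzyme that starts mucin-type O-glycosylation, is the third gene on that side. It read 9.51, 9.45 and 9.46 in control and 10.05, 9.81 and 9.77 in knockout, a difference of 0.41 ± 0.08 (adjusted p = 0.26). Its other probe, near the bottom of the scale, differed by -0.081. Kmt2c, a histone methyltransferase gene, is the fourth, and its brightest probe differed by 0.16 ± 0.06 (adjusted p = 0.69), again without overlap between the groups. The other probes of Kmt2c, near the bottom of the scale, differed by between -0.013 and 0.063. On the other side the nearest gene was Rheb, the GTPase that activates mTORC1, at 11.71 ± 0.02 and 11.67 ± 0.12 by its brightest probe. The other probes of Rheb, near the bottom of the scale, differed by between -0.023 and 0.017.

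Of these 10 genes, 3 had groups that did not overlap, where 12% of all genes (2296 of 19057) had such groups. Within 30 measured genes on either side, 12 of 60 (20.0%) did not overlap. Of these 60, 1 was called, again 1500035N22Rik, against 0.131% of all genes. Beyond the 5 nearest on each side, differences stayed between -0.18 and 0.15. Around each of the other 7 members, none of the 10 nearest genes was called by limma and 0 to 2 did not overlap. Of these 70 genes, 2 (2.86%, against 7.22% of all genes) had an unadjusted p under 0.05, 6 (8.57%, against 12%) did not overlap, and 0 were called with the replicate block. The members lie on chromosomes 1, 3, 4, 5, 10 and 15, and none lies on chromosome 2, which carries Snai1.

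**Figure D3:**
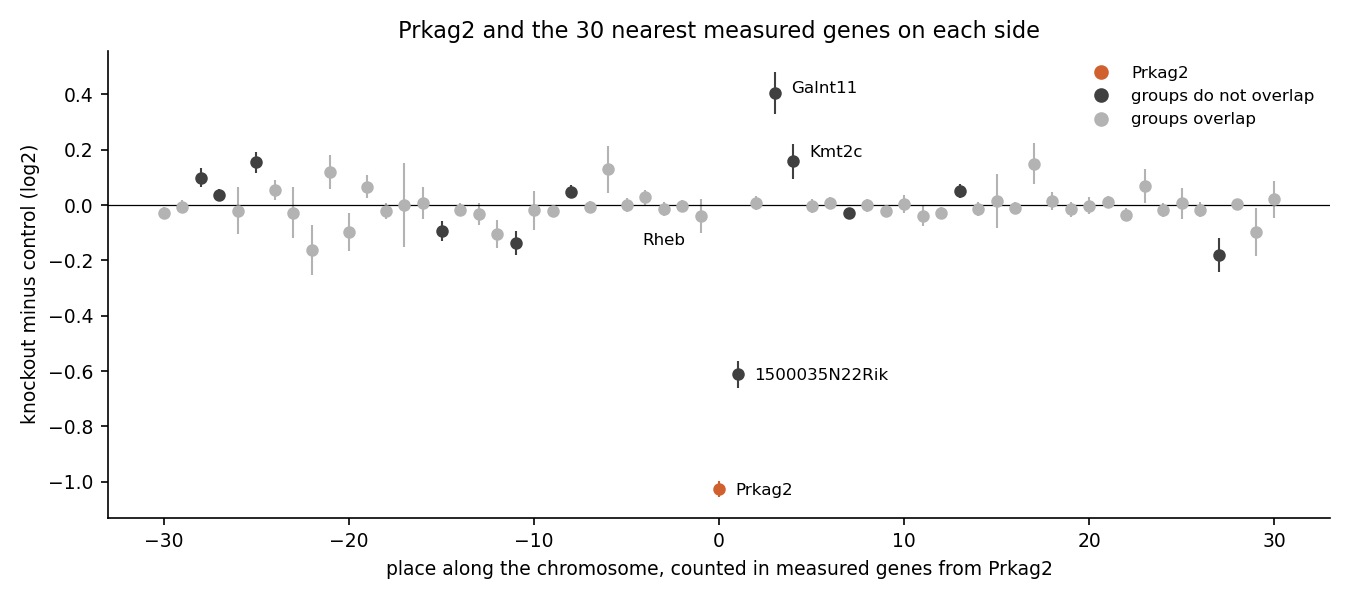
Knockout minus control difference (log2, with SE bars) of Prkag2 (orange) and the 30 measured genes on each side, placed by their order along the chromosome, with dark points where the 3 knockout and 3 control values do not overlap. Prkag2 at -1.03, 1500035N22Rik at -0.61 and Galnt11 at 0.41 stand apart, and genes more than 5 places away lie between -0.18 and 0.15.

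The genes most like Prkag2 over the 6 arrays were chosen by Pearson's r among 6968 other genes brighter than the upper quartile. Highest were Serinc3 (r = 0.995), Srp9, a subunit of the signal recognition particle (0.994), Pdrg1 (0.991) and Insl6 (0.991). Most opposite were Erdr1 (r = -0.997), the splicing regulator Esrp1 (-0.997), Ckap2 (-0.995) and the cathepsin gene Ctse (-0.995). All 8 were themselves called between the groups by limma, and 5 of them with the replicate block, which ended the call for Srp9, Insl6 (adjusted p = 0.070) and Ckap2 (0.13). Prkag2's values hardly vary within a group, so r over 6 arrays mainly restates that separation. Srp9 was 1.28-fold higher in control (10.79 ± 0.02 against 10.42 ± 0.03; limma adjusted p = 0.0093, and 0.070 with the replicate block). With the group means removed, the highest r was for Cpsf1, Mospd1, Gsk3b and Mid1ip1, from 0.996 to 0.999, and none of these was called. For the other members, r with Prkag2 lay between -0.10 and 0.36 over the 6 arrays. With the group means removed it was 0.96 for Prkab2, 0.82 for Prkab1, 0.70 for Prkaa2, 0.52 for Prkaa1, 0.15 for Prkag3, 0.017 for Prkag1 and -0.79 for Stk11. These values rest on within-group differences of at most 0.070 for Prkag2, and all arrays share their replicate numbers, so they are given as a description. For Prkab2 and the brighter Prkag3 probe, at the bottom of the scale, all 6 values spanned only 0.061 and 0.060.

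No gene of the surrounding pathway was called. Lists covering the kinases, phosphatases and nucleotide enzymes that act on AMPK, its substrates and its downstream processes held 139 genes, of which 130 were measured. By limma's adjusted p under 0.05, 0 rose and 0 fell, with or without the replicate block. Of the 130, 80 had a mean above the upper quartile, and a fit of genes above it alone also called 0 of these 80. The rest were dim, where differences are understated, so for them the lack of a call does not show an unchanged transcript. At an unadjusted p under 0.05 there were 11, 8 higher and 3 lower, or 8.46% against 7.22% of all genes. The groups did not overlap for 15 (11.5% against 12%). The median difference was 0.0072, and over all genes it was -0.00057.

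In the group of LKB1 partners and other AMPK kinases, 3 of 6 had a higher mean and 3 a lower one. Map3k7, which encodes the kinase TAK1, differed by 0.11 ± 0.02 (limma adjusted p = 0.28) and did not overlap, while Cab39l, a scaffold of the LKB1 complex, differed by 0.059 ± 0.033. Stradb, the pseudokinase partner of LKB1, read 9.13 ± 0.10 and 9.21 ± 0.13, a value given after it was seen. Among 13 AMPK-related kinases, most of which LKB1 also activates, Nuak2 differed by 0.13 ± 0.04 (adjusted p = 0.46) and Snrk by 0.13 ± 0.04 (0.58). None of 9 phosphatase genes reached an unadjusted p under 0.05, and Ppp2r1a and Ppp2ca, subunits of protein phosphatase 2A, differed by 0.086 and 0.073. Of 15 genes of adenylate and AMP metabolism, 11 had a higher mean. The mitochondrial adenylate kinase gene Ak3 differed by 0.27 ± 0.13 (adjusted p = 0.77, and 0.072 with the block) and adenosine deaminase (Ada) by -0.22 ± 0.11.

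AMPK inhibits mTORC1 through Tsc2 and Raptor. The mTORC1 list holds genes of the complex together with its activators and its inhibitors, Tsc2 and Deptor among them. Of the 9 lists it had the largest share of genes whose groups did not overlap. These were 8 of 29, 7 higher and 1 lower, or 27.6% against 12% of all genes. The list is singled out with these values known, and over all 9 lists the share was 11.5%. It was also bright, with 20 of 29 genes above the upper quartile (6969 of 19057 over all genes). An unadjusted p under 0.05 was reached by 6 of 29, or 20.7% against 7.22% of all genes. None was called by limma's adjusted p. Tsc2, a GTPase activator for Rheb and an AMPK substrate, read 10.38 ± 0.01 in control and 10.51 ± 0.03 in knockout, a difference of 0.13 ± 0.02 (SE; adjusted p = 0.28). Deptor, an inhibitor that binds mTOR, differed by 0.25 ± 0.06 (0.34). The lower gene, Lamtor1, a Ragulator subunit at the lysosome chosen after its values were seen, differed by -0.23 ± 0.07 (0.55). The gene of mTOR itself read 9.10 ± 0.10 and 9.08 ± 0.10, likewise given after it was seen.

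The measured downstream genes showed no shared direction, and many of them were dim. Among 23 substrates in lipid and glucose metabolism, 11 of them above the upper quartile, the median difference was 0.0057. Gpam, which starts glycerolipid synthesis, differed by 0.10 ± 0.05 and the hormone-sensitive lipase gene Lipe by -0.035 ± 0.022 (limma adjusted p = 0.80 and 0.86). Acaca and Acacb, the acetyl-CoA carboxylase genes whose products are classic AMPK substrates, were near the bottom of the scale, at 7.80 and 7.83 in control, and are named after their values were seen. In autophagy initiation, Pik3r4, a subunit of the class III phosphatidylinositol 3-kinase, read 8.05 ± 0.03 in control and 7.88 ± 0.04 in knockout, a difference of -0.17 ± 0.03 (adjusted p = 0.24). It had the lowest adjusted p of the 130 genes and was called in 2 alternatives, with eBayes trend and robust (0.024) and with the lowest value subtracted (0.041). Uvrag, which acts in the same complex, differed by 0.077. Of 14 genes of mitochondrial biogenesis and fission, 8 had a lower mean. Mtfr1l differed by -0.11 ± 0.04 (adjusted p = 0.65) and the mitochondrial rRNA methyltransferase gene Tfb1m by -0.14 ± 0.07 (0.74). Of 10 genes of fatty acid entry and glucose transport, 5 of them above the upper quartile, none reached an unadjusted p under 0.05. The glucose transporter gene Slc2a1 differed by 0.22 ± 0.12 and the carnitine carrier gene Slc25a20 by 0.14 ± 0.11.

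**Figure D4:**
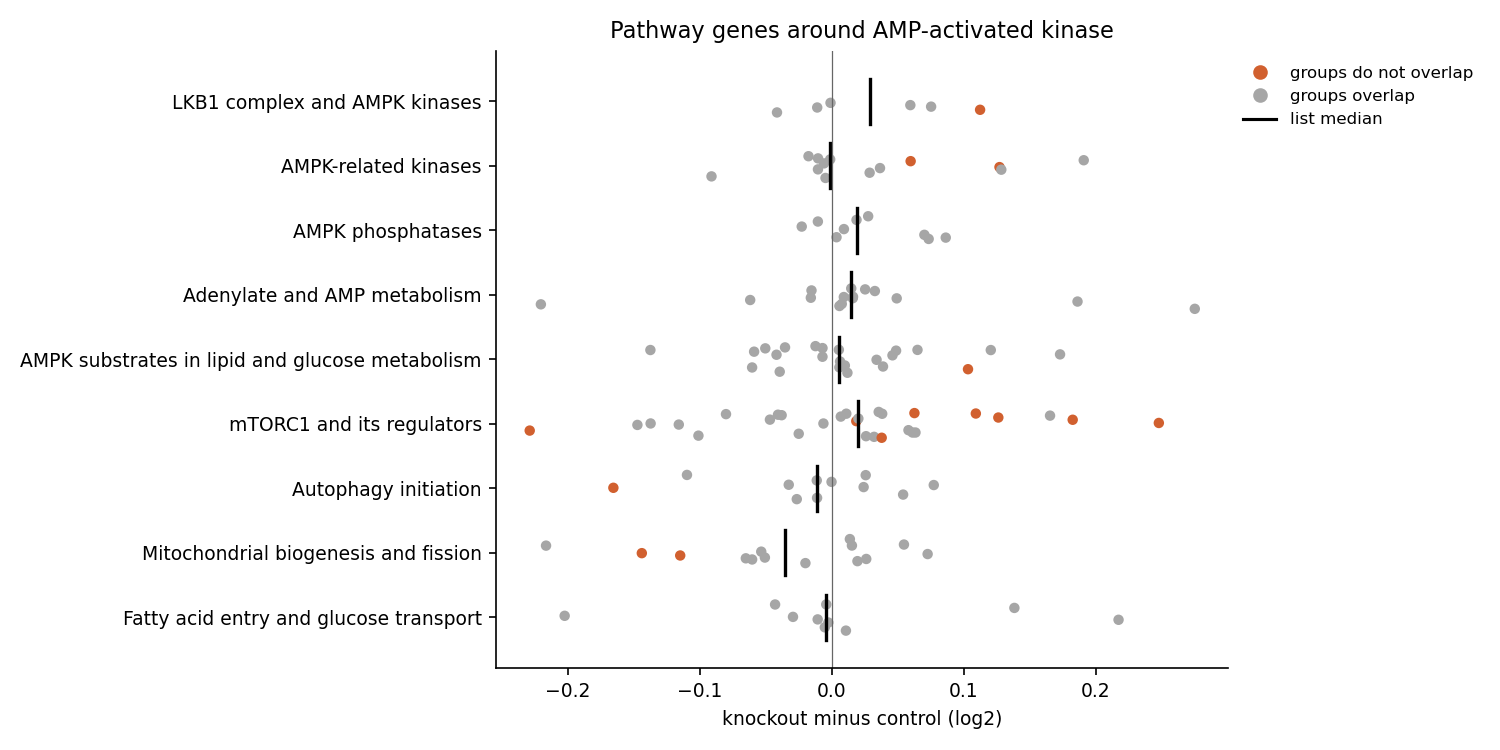
Knockout minus control difference (log2) of each measured gene in the 9 pathway lists, with orange points where the 3 knockout and 3 control values do not overlap and a black bar for the list median. List medians lie between -0.035 and 0.029, and the mTORC1 list holds 8 of the 15 orange points.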

How the data were processed

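The deposited table holds values taken as log2 (the base, the background correction and the software were not stated). Once sorted, no value differed between arrays by more than 0.0019, which shows distributions equalised by the authors, and no further normalization was applied. Labels describe biotin-labelled cRNA on Illumina arrays. Platform annotation named 34885 probes by 1 gene, 18 by several and left 10378 unnamed here. Of these 34885, 34807 matched GRCm38.p6 by gene number. Groups and replicate numbers come from the titles.

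Knockout was compared with control in limma 3.58.1 (R 4.3.3; lmFit, eBayes, Benjamini-Hochberg over 19057 genes, threshold 0.05, no filter). The fit was also run on simulated data with noise independent between arrays. Changes were added there only to genes above the upper quartile, so that run did not cover the replicate block or changes in dim genes. Deviations from group means correlated at r = 0.35, 0.33 and 0.46 for replicates numbered 1, 2 and 3, so the numbers were treated as pairing the arrays in a blocked alternative, although the labels do not say what a number shares. The members and lists were chosen with earlier results of these data known. Named genes are the members, the 2 of lowest p in each list, 12 by likeness to Prkag2 and its neighbours. Others are marked. The number of arrays limits the precision. Alternatives covered the block, normalization, dim genes, probe averaging, variance model, array weights, the compressed scale and leaving out each array.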

Additional observations from a re-analysis of the deposited data

How the results depend on the processing

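The log2 difference of Prkag2 stayed between -1.05 and -1.01 in every alternative run except the subtraction of the lowest value, where it was -2.59. Leaving out an array gave -1.05 to -1.01, and the replicate block left the value at -1.03. The 0 called pathway genes became 1 (Pik3r4) with eBayes trend and robust and 1 with the lowest value subtracted, and stayed 0 in the others, leaving out any array (0 to 0) and the replicate block included. The 25 genes called over the whole table (7 higher, 18 lower) became 9 with the replicate block, 41 among genes above the upper quartile, 71 with eBayes trend and robust, and 42 with the lowest value subtracted (19 higher, 23 lower). Leaving out an array gave 4 to 23, moving it by over 1.5 times for control arrays 1 (6 genes), 2 (15) and 3 (9) and for knockout arrays 2 (13) and 3 (4). No detection calls were used, so for Prkaa1, Prkab2 and Prkag3, whose means lie below the upper quartile, and for Prkag2 in the knockout, the compressed scale limits what could be measured.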
